A study of Mus musculus with 8 samples.

Results

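The contacts of DDX5, a DEAD-box RNA helicase, with transcripts of 42 genes of the translation machinery were examined in mouse intestinal epithelial cells (IECs). The genes were taken from a list by name and comprised 20 initiation factor genes, 5 elongation factor genes and 17 aminoacyl-tRNA synthetase genes, and every peak that overlapped one of them on its strand (GENCODE M21, GRCm38) was counted. Of these genes, 36 carried at least 1 called peak, out of 6582 genes with a called peak in any list of the series. The 6 without any were Eif2s1, Eif2s2, Dars, Rars, Tars and Yars.

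RNA was mapped by enhanced cross-linked immunoprecipitation (eCLIPseq), in which UV light links a protein to the RNA it touches, RNase trims the RNA, and the fragments that remain with the immunoprecipitated (IP) protein are sequenced together with a library of size-matched input. The series held 8 samples of C57BL/6 mice, all obtained by EDTA fractionation. The small intestine group had 2 CLIP and 2 input samples from wild-type females aged 8 weeks, given by the authors as 1 merged table of reproducible peaks that held only peaks past both cutoffs. The colon groups, titled mAb and rAb after an antibody, had 1 CLIP sample and 1 input sample each, and the deposited lists, which may each merge replicates 1 and 2, kept all called peaks. The same DDX5 antibody (Abcam ab53216) was written for every CLIP sample, so what sets mAb apart from rAb is not known. For the colon, the genotype label read wild type whereas the growth protocol gave an age of 120 days and Apcfl/+ CDX2Cre mice. Small intestine libraries followed a paired-end and colon libraries a single-end protocol. Tissue, age, any difference in genotype, protocol and peak selection therefore cannot be told apart, and no test was made between lists.

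Translation starts when initiation factors bring the small ribosomal subunit to the capped end of an mRNA and find the start codon, continues with elongation factors that deliver aminoacyl-tRNAs and move the ribosome, and depends on the synthetases that charge each tRNA with its amino acid. RNA levels of these genes were not measured here apart from the input reads. Several of the genes also host small nucleolar RNAs (snoRNAs), which guide the chemical modification of ribosomal RNA (rRNA), within their introns, so that a fragment mapped to such a gene can come from the mature mRNA, from an unspliced intron or from a snoRNA.

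For each called peak the log2 fold is that of IP over input reads, each scaled to the depth of its library. A peak with a log2 fold and a −log10 p both above 3 is called a site. On the 42 genes the mAb list held 218 of its 16455 called peaks, the rAb list 181 of 9146, and the small intestine had 23 of 1278. In the mAb list 1 of the 218 was a site (0.459%), against 1.22% of all called peaks. In the rAb list 4 of the 181 were sites (2.21%), against 1.99% of all. By construction of the table, all 23 small intestine peaks were sites, as were 100% of the peaks in that list.

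The sites fell on 9 genes, and each of these 9 had at least 1 small intestine site. They were the initiation factor genes Eif1, Eif3a, Eif4a1, Eif4g2, Eif5, Eif5a and Eif5b, the elongation factor gene Eef1a1 and the mitochondrial leucyl-tRNA synthetase gene Lars2. In the colon, a site was present on 1 gene of the mAb list (Lars2) and on 2 of the rAb list (Eif4g2 and Lars2), of 31 and 33 member genes with a called peak. Over all genes with a called peak, the share with a site was 2.64% for mAb and 3.17% for rAb. All 36 genes with a called peak had one in a colon list, and 9 of them (25%) also held a small intestine site, against 6.41% of all 6508 genes with a called colon peak. The members also had more input reads. In the mAb list the summed input reads behind the traced peaks of a gene had a median of 14.5 over 30 members and 3 over all genes, and within the members 43 over the 9 with a small intestine site and 9 over the other 21. In the rAb list the medians were 14 over 32 members and 4 over all genes. The members were also chosen with earlier results of these data known. The parts of RNA abundance and of that choice in these shares were not tested.

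The 15 small intestine sites in an intron within 1500 bases of the transcript start are the largest group. Each held at least 1 run of 3 or more G, 12 held 2 or more, and 3 (2 on Eif4a1 and 1 on Eif1) held 1. These runs were not counted over all 306 small intestine peaks in such a position on protein-coding genes. The median GC content of those peaks was 76.1%, against 72.3% for the 15 sites, so the runs cannot be called particular to the members. The sequences shown here were taken from the 12 with 2 or more runs, because they show these runs most clearly, so they hold more runs than the group as a whole. They are given 5′ to 3′ on the transcribed strand from the GRCm38 genome of RefSeq, in lower case, with runs of 3 or more G in capitals.
Eif4a1 intron 1, chr11:69672087-69672133 (-): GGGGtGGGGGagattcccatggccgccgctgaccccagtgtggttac
Eif4a1 intron 1, chr11:69672037-69672086 (-): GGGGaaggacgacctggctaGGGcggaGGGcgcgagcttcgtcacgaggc
Eif4a1 intron 1, chr11:69671868-69671929 (-): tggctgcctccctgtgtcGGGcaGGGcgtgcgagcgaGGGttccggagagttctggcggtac
Eif4a1 intron 1, chr11:69671264-69671357 (-): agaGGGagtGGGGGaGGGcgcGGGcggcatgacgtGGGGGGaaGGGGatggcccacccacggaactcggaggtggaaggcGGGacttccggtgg
Eif4a1 intron 1, chr11:69671013-69671049 (-): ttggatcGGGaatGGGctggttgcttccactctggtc
Eif4g2 intron 1, chr7:111082230-111082309 (-): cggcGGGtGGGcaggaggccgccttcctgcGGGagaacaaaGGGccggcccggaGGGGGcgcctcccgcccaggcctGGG
Eif5 intron 2, chr12:111538626-111538679 (+): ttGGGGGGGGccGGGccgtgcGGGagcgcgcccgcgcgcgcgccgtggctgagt
Eif5a intron 1, chr11:69920699-69920761 (-): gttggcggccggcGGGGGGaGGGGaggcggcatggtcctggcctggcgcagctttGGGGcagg
Eef1a1 intron 1, chr9:78481237-78481282 (-): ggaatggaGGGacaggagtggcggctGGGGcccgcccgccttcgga

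The exonic sites on Eif3a are shown for contrast, since they are rich in A as well as in G, together with the only colon site outside Lars2, which lies on a snoRNA gene in an Eif4g2 intron and holds no run of 3 or more G.
Eif3a exon 16, chr19:60769929-60770005 (-): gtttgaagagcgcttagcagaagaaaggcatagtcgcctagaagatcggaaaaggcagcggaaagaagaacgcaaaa
Eif3a exon 16, chr19:60769863-60769928 (-): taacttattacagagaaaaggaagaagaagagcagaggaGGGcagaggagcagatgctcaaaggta
Eif4g2 intron 14, Gm23262, chr7:111076150-111076228 (-): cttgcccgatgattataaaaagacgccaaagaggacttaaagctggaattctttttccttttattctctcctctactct

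The 3 gene classes were first compared within each list by the log2 folds of their called peaks. In the mAb list the median was 0.56 over 141 peaks on initiation factor genes, −0.20 over 49 on elongation factor genes and 1.09 over 28 on synthetase genes, beside 1.15 over all called peaks. A log2 fold above 0 was measured for 66.7%, 30.6% and 82.1% of these peaks and for 83.9% of all. In the rAb list the medians were 1.23 over 100 peaks, 0.34 over 45 and 2.24 over 36, beside 2.24 over all. Elongation factor genes were thus lowest and synthetase genes highest in both colon lists. The order of the classes moved with the depth of their peaks. Whole reads could be traced from the pairs of deposited values for 117 of the 218 mAb and 155 of the 181 rAb member peaks, where an input of 1 stands for 0 or 1 read. In the mAb list the 14 traced peaks of elongation factor genes had a median of 29 IP and 33.5 input reads. The 82 of initiation factors had 5 and 3.5, and the 21 of synthetases 3 and 3. Most untraced member peaks had a −log10 p of 0, so these depths cover fewer peaks than the medians of log2 fold, above all for elongation factors. Many elongation factor peaks also had further copies in the genome, at 90% identity over 80% of the peak. Of mAb peaks long enough to search, 11 of 11 on Eef1a1 and 14 of 16 on Eef2 had one. On Eef1g and Eef1b2 it was 3 of 3 and 3 of 6, against 43.8% over all members. In the rAb list 11 of 11 on Eef1a1, 11 of 15 on Eef2 and 3 of 6 on Eef1b2 had one, against 45%. The parts of depth and of such copies in the order were not tested. Without the peaks of Lars2, the synthetase median was 0.56 in the mAb list, equal to that of the initiation factors, and 1.65 in the rAb list. Peaks of a gene share their library and transcript, so these medians are descriptions.

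**Figure D1:**
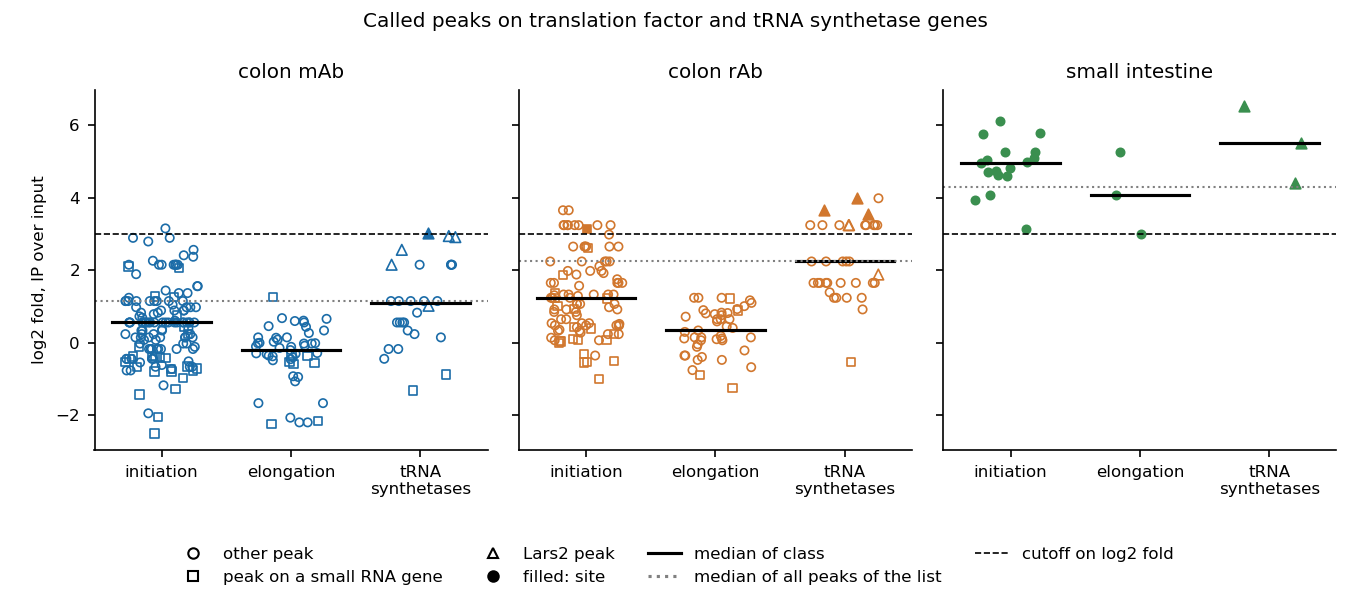
Log2 fold of IP over input (vertical axis) of every called peak on the 42 genes, in 1 panel for each list and 1 column for each gene class, with filled marks for sites, squares for peaks on small RNA genes, triangles for Lars2, black bars for class medians, a dotted line for the median of all called peaks of the list and a dashed line at the cutoff of 3. Most colon peaks lie under the cutoff, and the elongation factor column is lowest in both colon panels, with medians of −0.20 and 0.34.

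In the small intestine the classes differed mainly in number. The initiation factor genes held 17 sites on 7 genes with a median log2 fold of 4.94, Eef1a1 held 3 sites with a median of 4.07, and Lars2 held 3 with a median of 5.50. The median over all 23 was 4.94 and over all 1278 peaks of the list 4.29. None of the other 16 synthetase genes and none of the other 4 elongation factor genes held a small intestine site.

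**Figure D2:**
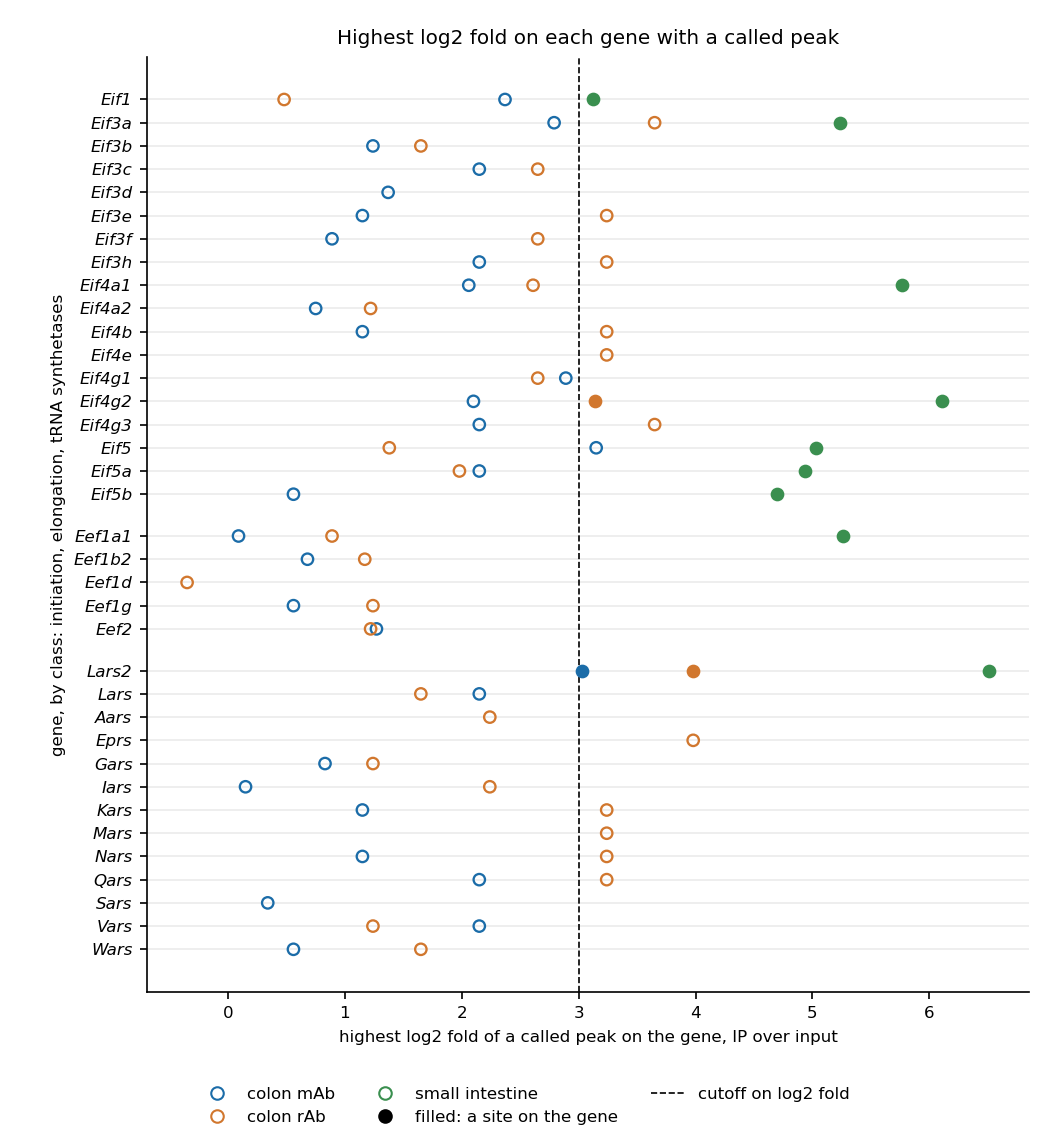
Highest log2 fold of IP over input of a called peak (horizontal axis) on each of the 36 genes with a called peak, coloured by list and filled where the gene holds a site in that list, with a dashed line at the cutoff of 3. The 9 small intestine points span 3.12 to 6.51, and Lars2 is the only gene with a filled point in all 3 lists.

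Eif4a1, which encodes the DEAD-box helicase that unwinds the mRNA leader during scanning, had the most small intestine sites of any member. All 7 lay in the first intron, between 184 and 1268 bases from the transcript start. Their log2 folds were 4.80, 5.26, 4.73, 4.61, 5.09, 4.97 and 5.77 in order from the start, with −log10 p from 9.39 to 22.3. The values are close to each other along the intron, which is 1302 bases long. The 2 sites nearest to the start abut, so they need not be separate contacts. For 2 of the 7, another, non-coding transcript of the gene had an exon there. No colon peak overlapped any of the 7.

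The colon peaks of Eif4a1 lay elsewhere in the gene. All 8 mAb and all 5 rAb peaks overlapped 1 of 3 snoRNA genes in downstream introns. On Gm25835 the log2 fold was 2.06 in the mAb list (155 IP over 55 input reads, exact 95% interval of the fold 1.61 to 2.53) and 2.61 in the rAb list (103 over 53 reads, 2.12 to 3.12). Their −log10 p of 22 and 33.2 was the highest of any member peak in each list, yet neither reached the log2 fold cutoff. The peaks on Gm22988 were at log2 folds of 0.07 or less in both lists, down to −1.42. Neighbouring snoRNA genes of 1 host gene thus had peaks on either side of 0. Their sequences differ in how often they recur. The mAb peaks on Gm22988 that were long enough to search had 21 and 162 further genome copies, and the mAb peak on Gm25835 had 0. On the third gene, Gm24029, a mAb peak of 102 bases was at −0.38 with 0 copies. A mAb peak of 13 bases, too short to search, was at 1.27. A rAb peak on Gm24029 was at 1.86 with 4 copies. The part of copies in these log2 folds was not tested. Reads of Gm22988 and of its copies cannot be told apart in these lists.

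**Figure D3:**
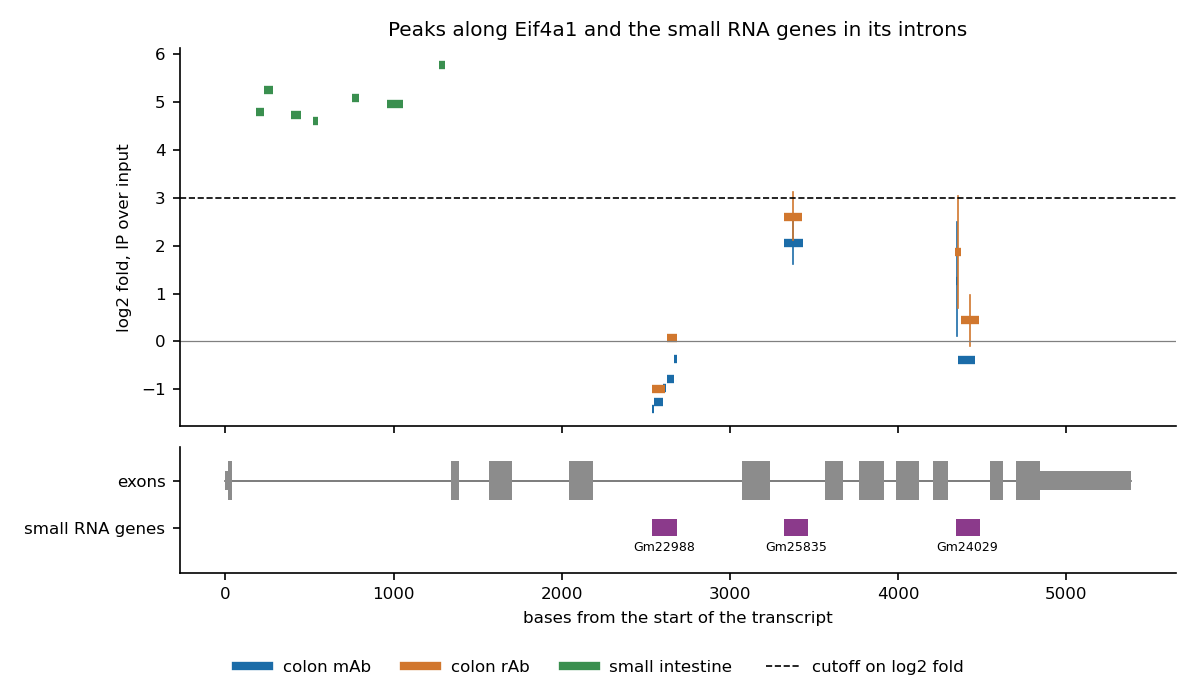
Log2 fold of IP over input (upper vertical axis) of each peak along Eif4a1 against bases from the transcript start, with horizontal bars for peak extent coloured by list, vertical lines for exact 95% intervals where reads were traced, and exons (taller where coding) and snoRNA genes drawn to scale below. The 7 small intestine sites lie in the first intron at log2 folds of 4.61 to 5.77, and every colon peak sits on a snoRNA gene.

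Its paralogue Eif4a2 held no small intestine site. All of its 13 mAb and 12 rAb peaks overlapped small RNA genes in its introns, with log2 folds from −2.50 to 0.75 for mAb and from −0.54 to 1.22 for rAb. Across all members, 37 of 218 mAb peaks (17%) and 27 of 181 rAb peaks (14.9%) overlapped a small RNA gene, and 0 of the 23 small intestine sites did. The median log2 fold was −0.52 for such peaks and 0.56 for the others in the mAb list, and 0.11 and 1.24 in the rAb list. CLIP reads of an intronic snoRNA and of its host transcript cannot be told apart at these positions.

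Eif4g2 encodes a relative of the eIF4G scaffold that lacks the cap-binding protein's docking site and serves alternative modes of initiation. In the small intestine it held 2 sites in the first intron, at 603 and 721 bases from the start, with log2 folds of 4.58 and 5.75. A further site lay in the 3′ UTR (exon 22), with a log2 fold of 6.11, the second highest among the members. None overlapped a colon peak. In the rAb list, its site on the snoRNA gene Gm23262 had a log2 fold of 3.14 (28 over 10 reads, 2.05 to 4.35). The mAb peak at the same place was at 2.10 (29 over 10 reads, 1.02 to 3.30). The intervals of both lists overlap, and the cutoff of 3 lies within that of each list. A neighbouring peak on Gm23262 was at 1.28 for mAb and 1.02 for rAb. Of the other 18 mAb and 23 rAb peaks on this gene, none was a site. A mAb peak among them lay in the first intron, 498 bases from the start, at 1.56 (4 over 2 reads, −1.24 to 5.03).

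Eif5, whose product triggers GTP hydrolysis on eIF2 at the start codon, had 2 small intestine sites in intron 2, at 610 and 783 bases from the start, with log2 folds of 5.03 and 3.93. Both overlapped mAb peaks, at log2 folds of 2.89 (5 over 1 read, interval −0.27 to 8.45) and 3.15 (6 over 1 read, 0.11 to 8.67). The second of these passed 3 in log2 fold, but its −log10 p of 1.7 missed the cutoff. No rAb peak was called there. The rAb peaks on Eif5 were both on the snoRNA gene Snora28, at 1.38 and 0.04.

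Eif1 encodes the small factor that guards start codon selection. Its only small intestine site lay 312 bases from the start with a log2 fold of 3.12, close to the cutoff, in the first intron of the chosen transcript and in the 5′ UTR of another. It overlapped a mAb peak at 2.37 (7 over 2 reads, −0.02 to 5.67) and no rAb peak. The rAb peak of the gene, in exon 1, was at 0.48.

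Eif5a encodes the hypusine-bearing factor that relieves stalled ribosomes. It held 1 small intestine site in the first intron, 625 bases from the start, with a log2 fold of 4.94. The colon peaks nearest to the start lay in the 5′ UTR of exon 1 and had log2 folds of 0.61 in the mAb list (31 over 30 reads, −0.16 to 1.39) and 1.57 in the rAb list (17 over 18 reads, 0.53 to 2.61). The first intron also held a mAb peak, 810 bases from the start, at 2.15 (3 over 1 read, −1.49 to 7.86). No colon peak overlapped the intronic site.

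Eef1a1 encodes the GTPase that carries aminoacyl-tRNA to the ribosome. In the small intestine it held 2 sites in the first intron, at 99 and 442 bases from the start, with log2 folds of 4.07 and 5.26. A further site, in coding exon 8, had a log2 fold of 3 after rounding, just above the cutoff. In the colon its 16 mAb peaks spanned −2.19 to 0.09 and its 14 rAb peaks −0.75 to 0.89. The exon 8 site overlapped colon peaks at −0.40 (mAb) and 0.34 (rAb), so that the intronic sites had no colon counterpart and the exonic one had peaks near 0. Sequence of Eef1a1 recurs in the genome: all 11 peaks that were long enough to search in each colon list had at least 1 further copy at 90% identity over 80% of the peak, and the exon 8 site had 3. Both intronic sites had none. At the exons, reads of Eef1a1 and of its copies cannot be told apart in these lists.

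**Figure D4:**
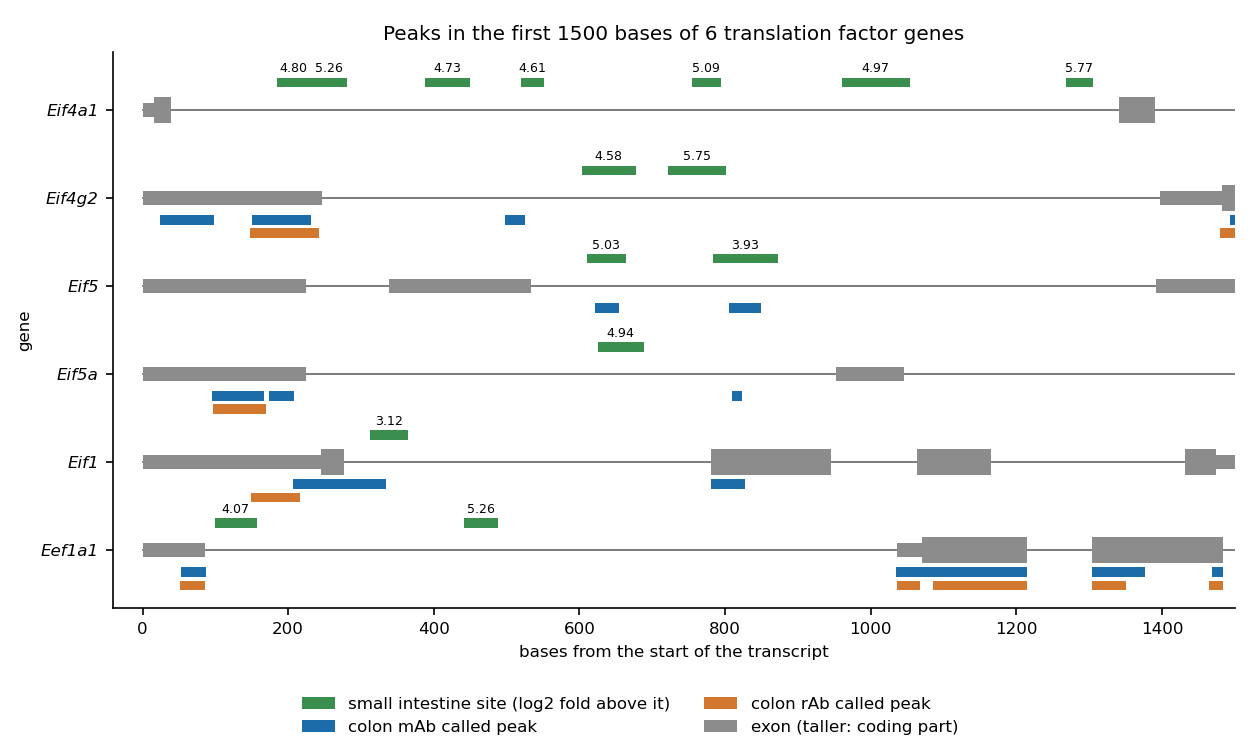
Positions, in bases from the transcript start (horizontal axis), of the small intestine sites (above each gene line, with the log2 fold) and of colon mAb and rAb called peaks (below) on the 6 genes with intronic sites near the start, with exons as grey boxes. The intronic sites of Eif4a1, Eif4g2, Eif5a and Eef1a1 have no colon peak under them, whereas both Eif5 sites and the Eif1 site overlap a mAb peak.

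Over the 6 genes, 15 of 23 small intestine member sites (65.2%) lay in an intron within 1500 bases of the start, against 27.6% of all 1107 small intestine peaks on protein-coding genes. Counted once per gene, this held for 6 of 9 members (66.7%) and for 165 of 431 genes (38.3%). Eif4a1 alone gave 7 of the 15 sites. The chosen transcripts of the 6 genes spanned from 2212 bases (Eif1) to 15281 (Eif4g2). In each of them the first intron ended within 1500 bases of the start. Spans were not compared with those of all genes, and the part of gene length in these shares was not tested. In the colon the corresponding gene counts were 6 of 31 members (19.4%) against 11.2% of all genes for mAb, and 1 of 33 (3.03%) against 4.82% for rAb. The median GC content of the 23 sites was 68.1%, and 60.3% over all small intestine peaks on protein-coding genes. Among sites in an intron near the start it was 72.3% for members and 76.1% for all. At such positions the members' median was thus below that of all sites.

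The sequences printed above also show many G runs, so the G-quadruplex pattern, 4 runs of 3 or more G with 1 to 7 bases of any kind between neighbouring runs, was searched on both strands of the sites and of 50 bases on either side. It was found on the transcribed strand at 5 of 23 member sites (21.7%), on Eif4a1, Eif5 and Eif1, and at 17.9% of all small intestine peaks on protein-coding genes. On the opposite strand the pattern was found at 0 of the 23, which allows a share of up to 13%, and at 2.89% of all. Within introns near the start it was present at 33.3% of member sites and 36.6% of all. A match describes the letters and not a structure.

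Eif3a encodes the largest subunit of eIF3, the scaffold on which the small subunit is loaded. It was the only member with a small intestine site in a coding exon over which both colon lists held a peak that passed an adjusted p of 0.05. The 2 small intestine sites in exon 16 abut and had log2 folds of 5.24 and 4.08. The second of them overlapped a mAb peak at 2.79 (14 over 3 reads, 0.95 to 5.23) and a rAb peak at 2.11 (11 over 8 reads, 0.66 to 3.63). Neither colon peak was a site, but the Benjamini-Hochberg adjusted p over all peaks of the list was 0.0258 for mAb and 0.0291 for rAb. In exon 15 both colon lists held another such peak, at 2.41 (18 over 5 reads, 0.93 to 4.20) for mAb and 1.75 (15 over 14 reads, 0.60 to 2.91) for rAb, with no small intestine site. The highest rAb value on the gene, 3.65 in exon 5, rested on 4 over 1 read. The first exon 16 site, at 5.24, had a match of 20 bases to an annotated rRNA sequence (Gm23342).

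Eif5b encodes the GTPase that joins the ribosomal subunits. Its small intestine site had a log2 fold of 4.70 and −log10 p of 7.76. The 2 mAb peaks, in exons 4 and 8, were both at 0.56, and the gene had no rAb peak.

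At the looser rule of an adjusted p under 0.05 and a log2 fold above 0, 10 mAb peaks on the members were called (4.59%), against 2.89% of all, and 16 rAb peaks (8.84%), against 6.22% of all. Of the 10 mAb calls, 4 lay on snoRNA genes, 4 on Lars2 and 2 on Eif3a. Of the 16 rAb calls, 8 lay on snoRNA genes, 4 on Lars2, and the remaining 4 on Eif3a, Eif5a and Eef2. The gene Eef2 encodes the translocase of the elongating ribosome, and its best peak lay on the snoRNA gene Snord37, at a log2 fold of 1.27 for mAb (62 over 38 reads, 0.66 to 1.89) and 1.22 for rAb (34 over 46 reads, 0.53 to 1.89). The members' mRNA exons outside Lars2 thus gave 2 adjusted calls for mAb and 4 for rAb.

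Of the initiation factor genes without a site, the highest log2 fold was that of Eif4g1 in the mAb list and Eif4g3 in the rAb list, both scaffolds of the cap-binding complex. The Eif4g1 value of 2.89 rested on 5 over 1 read (−0.27 to 8.45), and the Eif4g3 value of 3.65 on 4 over 1 read (0.32 to 9.28). A better covered Eif4g1 peak, in exon 22, was at 2.26 (13 over 4 reads, 0.57 to 4.34) in the mAb list and at 2.24 (9 over 6 reads, 0.59 to 4.01) in the rAb list. The other eIF3 subunits reached at most 2.15 in the mAb list (Eif3c and Eif3h) and 3.24 in the rAb list (Eif3e and Eif3h, each 3 over 1 read). All of these stayed under the cutoff on −log10 p.

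Elongation factor genes without a site stayed low in both colon lists. The highest rAb value of the class was 1.24 on Eef1g, the gamma subunit of the exchange factor of eEF1A, from 3 over 4 reads. Eef1b2, its catalytic subunit, reached 0.68 for mAb and 1.17 for rAb. Eef1d had a single rAb peak, at −0.35.

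The synthetase genes other than Lars2 gave few reads. Of these 16, 9 had a mAb peak and 11 a rAb peak, with a median of 3 IP reads in each list and at most 6 and 5. The highest mAb value, 2.15, was shared by Lars, Qars and Vars. In the rAb list Eprs, which encodes the joined glutamyl- and prolyl-tRNA synthetase, reached 3.98 from 5 over 1 read (0.82 to 9.54) with a −log10 p of 2.41, the nearest of any of them to a site. Kars, Mars, Nars and Qars were each at 3.24 from 3 over 1 read, the commonest value of the rAb list. Such a peak had a −log10 p of 1.34, so that a site was not detectable at this depth.

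Lars2, the nuclear gene of the mitochondrial leucyl-tRNA synthetase, was the only synthetase gene with sites and the only member with sites in all 3 lists. Of its 15 peaks, 12 lay in the 3′ UTR of exon 21, within a stretch of 400 bases at chr9:123461795-123462194, and 3 in coding exons at 3 over 1 read. The sites of this stretch are shown because they are related to sequence found at many other places, with windows inside the 3′ UTR limited to 30 bases, runs of 3 or more G in capitals for the first 4, and for the last the letters of the sarcin-ricin loop, a stretch of large-subunit rRNA conserved in all life, in capitals.
Lars2, small intestine site 1, chr9:123461795-123461822 (+): ggaggcctaaggcgagctcaGGGaggac
Lars2, small intestine site 2, chr9:123461868-123461895 (+): attttcagtaggaatacagaccgtgaaa
Lars2, small intestine site 3, chr9:123461896-123461917 (+): gcGGGGcctcacgatccttctg
Lars2, within a rAb site, chr9:123461829-123461858 (+): ctcccgtggagcagaaGGGcaaaagctcgc
Lars2, downstream in the stretch, chr9:123462159-123462188 (+): aatcctgctcAGTACGAGAggaaccgcagc

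The small intestine sites had log2 folds of 6.51, 4.39 and 5.50 in that order along the gene. In the colon, the mAb site had 72 over 13 reads and a log2 fold of 3.03 (2.17 to 4.01), and the abutting mAb peaks were at 2.94, 2.91 and 2.56. The 3 rAb sites were at 3.98 (45 over 9 reads, 2.93 to 5.19), 3.56 (45 over 12, 2.62 to 4.62) and 3.65 (64 over 16, 2.85 to 4.54). These intervals overlap between the mAb and rAb lists and all include the cutoff of 3, so that the count of 1 mAb site against 3 rAb sites follows small differences in fold. Further downstream both lists held a lower peak, at 1.02 in the mAb list (44 over 32 reads) and 1.88 in the rAb list (41 over 35 reads). The abutting intervals belong to 1 stretch: joined within 10 bases, the rAb sites on the synthetases numbered 1.

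**Figure D5:**
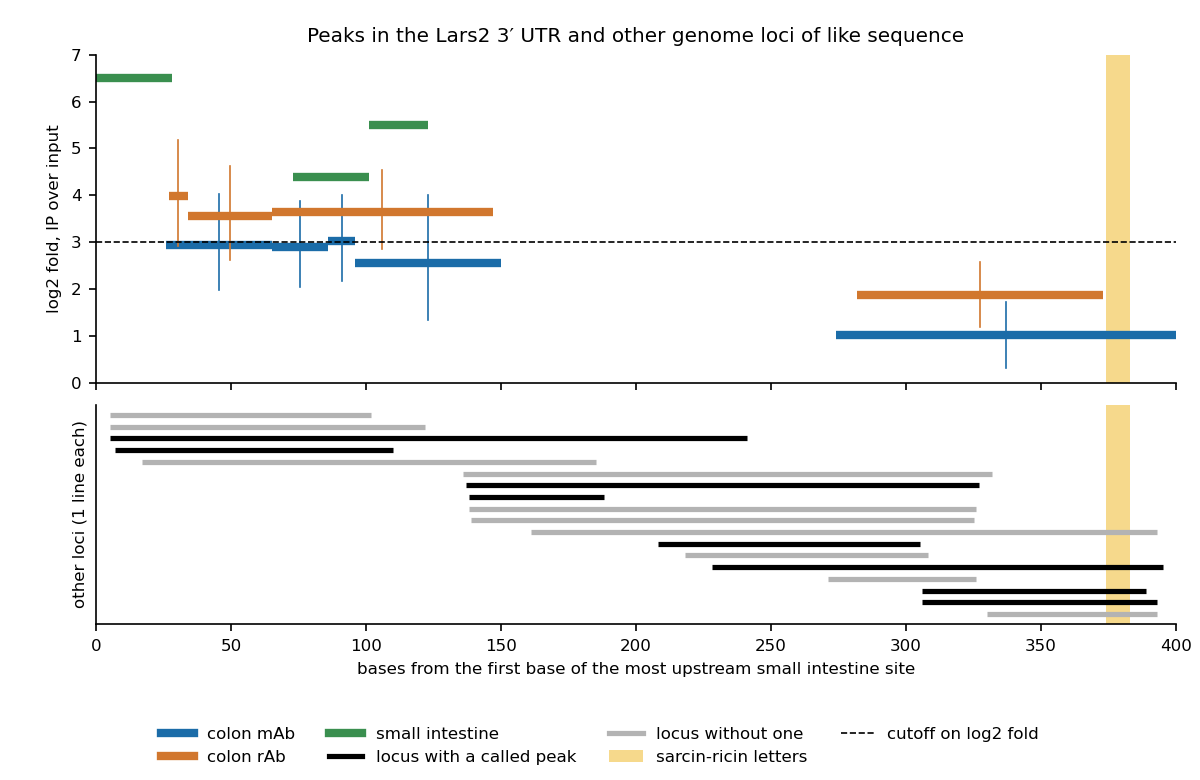
Log2 fold of IP over input (upper vertical axis) of the Lars2 3′ UTR peaks against bases from the first base of the most upstream small intestine site, with horizontal bars for peak extent coloured by list and vertical lines for exact 95% intervals of colon peaks, above the 18 other genome loci that align to the stretch, 1 line each and black where a called peak lies on the locus. Peaks of the 3 lists pile up at the upstream end of the stretch, and 8 of the 18 loci carry a called peak.

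The Lars2 peaks were checked against rRNA. Of the 15, none aligned to the 421 rRNA sequences of the annotation (at least 20 bases at 90% identity), and 4 were too short to be searched. Only 420 bases of 28S rRNA were among these sequences, so a match to the rest of 28S could not be found by this search. The sarcin-ricin letters AGTACGAGA, which belong to 28S rRNA, occurred once in the stretch, at chr9:123462169-123462177, inside the downstream mAb peak. The letters were searched on the strand of each peak and were found in 4 of 16455 mAb peaks (0.0243%), 0 of 9146 rAb peaks, which allows a share of up to 0.0328%, and 1 of 1278 small intestine peaks (0.0782%). The stretch aligned to 18 other loci on 12 chromosomes, over 50 to 236 bases at 90.3% to 98.8% identity. Of these, 8 carried a called peak in each colon list, among them loci on Gphn, Wdr92, Cd44 and Zfp185, and 5 carried one in the small intestine, among them those on Gphn and Wdr92. A pair of the loci lay side by side under the same peaks. The highest log2 fold at these loci was 3.28 for mAb, 4.65 for rAb and 6.26 for the small intestine. Whether reads at the Lars2 stretch came from the Lars2 mRNA, from rRNA or from another locus cannot be told apart in these lists.

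Without Lars2 the members held no mAb site, 1 rAb site (the snoRNA peak of Eif4g2) and 20 small intestine sites on 8 genes. Annotated rRNA sequences matched 1 mAb peak of the members (Eif4b), 2 rAb peaks (Eif3f and Eif4e) and 1 small intestine site (Eif3a). Over all peaks such matches made up 1.82%, 1.52% and 1.8% in the same order of lists.

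Member peaks were placed by annotated region. Coding sequence held 64.2% of mAb member peaks (95% interval, 57.5 to 70.6) against 49.8% of all, and 71.8% of rAb member peaks (64.7 to 78.2) against 55.5%. In the small intestine it held 17.4% of the 23 sites (4.95 to 38.8) against 31.7%. Introns held 3.21%, 4.42% and 43.5% of member peaks in the same order of lists, against 25.1%, 15.7% and 36.7% of all. This count takes all transcripts of a gene, and all genes on the strand, into account. Of the 15 sites in a near-start intron of the chosen transcript, 5 were thus placed in an exon of another transcript. These were 2 each on Eif4a1 and Eif5 and 1 on Eif1. Peaks on a small RNA gene inside a host intron were likewise placed in a non-coding exon. Such exons held 17% of mAb and 14.4% of rAb member peaks. By the peak's midpoint in the chosen transcript alone, introns held 22%, 19.3% and 65.2% of member peaks. Over all peaks on protein-coding genes these shares were 30.2%, 21.3% and 46.3%. The colon peaks of the members lay mostly in coding exons, whereas intron was the commonest region of the small intestine sites, and only the small intestine table was limited to enriched peaks. The intervals cover counting error only and treat the peaks of a gene as separate.

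The lists were then compared place by place. Of the 218 mAb member peaks, 106 (48.6%) overlapped a rAb peak, against 18.2% of all mAb peaks. Of the 181 rAb member peaks, 94 (51.9%) overlapped a mAb peak, against 32% of all. Input reads per gene were higher for the members, with medians of 14.5 against 3 (mAb) and 14 against 4 (rAb). The part of depth in these overlaps was not tested. Over 117 overlapping pairs of member peaks, the log2 folds had a Spearman's rho of 0.748, and over all 3291 pairs one of 0.743. Pairs share a gene and often a read-poor position, and this is given as a description. The median rAb log2 fold was 0.57 above the mAb one in the member pairs and 0.67 above it in all. Of the 23 small intestine member sites, 8 (34.8%) overlapped a mAb peak and 5 (21.7%) a rAb peak, close to the 35.8% and 19.3% of all small intestine peaks. All 3 Lars2 sites overlapped peaks of both colon lists.

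Other genes of the pathway were counted from a further list. Of 36 other initiation factor and cap-related genes, 15 had a mAb peak and 13 a rAb peak, of 8 other elongation factor genes 2 and 1, of 23 other synthetase and cofactor genes 4 and 4, and of 6 termination and recycling genes 2 and 4. None of the 4 groups held a small intestine or mAb site. The single rAb site was on Eif4enif1, the transporter that carries eIF4E into the nucleus, in exon 9 at a log2 fold of 3.07 (8 over 3 reads). Within these lists, small intestine sites were thus found only on the 9 members already described. The members were chosen with earlier results of these data known, and the part of that choice in this split was not tested.

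The labelled tissues were compared with marker genes by called peaks, which reflect contacts as well as RNA level. All 9 epithelial markers had peaks in both colon lists and 7 of 9 in the small intestine. Of 7 small intestine enterocyte markers, 6 had peaks in the small intestine and none in either colon list, and of 6 colon markers 4 had mAb peaks, 1 had rAb peaks and none had a small intestine peak. Of 8 immune markers, 2 had peaks in each colon list, and of 7 stromal and muscle markers, 6 and 4. Their part in the colon values was not tested.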

How the data were processed

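Reads were trimmed, aligned to mm10 (GRCm38) and handled with cutadapt 1.9.1, STAR 2.4.0i and SAMtools 1.4.1, per the submitters' processing notes, and CLIPper was run by the authors to find peaks in the IP library. The authors deposited for each peak the −log10 p of IP over input reads, capped at 400, and the log2 fold of depth-scaled IP over input reads. The small intestine table is a merge of 2 replicates by Irreproducible Discovery Rate that was filtered by the authors to values above 3, and it holds no values per replicate. A further peak table that matches no sample label was not used.

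Peaks were assigned to genes and regions of GENCODE M21 by any overlap of at least 1 base on the strand, with coding sequence first. An intron, an exon and the distance from the start refer to 1 chosen transcript per gene. Whole colon reads were sought from each pair of log2 fold and −log10 p, within 1% of the −log10 p, with input over IP depth ratios of 1.48 (mAb) and 3.15 (rAb). This traced 99.2% of 13011 mAb and 99.6% of 8282 rAb peaks with a −log10 p above 0 and under the cap. Most untraced member peaks had a −log10 p of 0. The median traced member peak held 5 IP and 4 input reads in the mAb list and 4 and 6 in the rAb list, and all peaks 3 and 2 in both. Exact (Clopper-Pearson) 95% intervals used SciPy 1.17.1 and cover counting error only, since PCR copies are not independent molecules. Adjusted p-values are Benjamini-Hochberg values over all peaks of a colon list, computed from the deposited −log10 p. They describe reads of 1 list and not animals. Sequences were read with pysam 0.24.0 and aligned with BLAST+ 2.17.0. Not every site has its sequence reported here. The scripts were tested on simulated data.

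Every member was counted. Members with a site are described in all 3 lists, and of the others the highest log2 fold of each class in each colon list. Further genes were named to describe snoRNA hosts and neighbouring values. The members and lists were chosen with earlier results of these data known.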

Additional observations from a re-analysis of the deposited data

How the results depend on the processing

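Of 127 values recomputed under an alternative, 79 stayed within the bounds used (within 1.5 times for counts) and 48 moved. Only a median log2 fold of a colon list could reverse in sign, and 0 did. Counts already at 0 could not fall under a stricter rule, so the number unchanged is no measure of robustness. The number of colon sites on the members moved with the cutoffs, with the joining of intervals and with Lars2. Above 4, the mAb and rAb lists held 0, also for initiation factors and synthetases. Above 1, the mAb list held 10 (5 on initiation, 1 on elongation and 4 on synthetase genes) and the rAb list 11 (6 and 1 on initiation and elongation genes). With an adjusted p under 0.05, the counts were 10 (5, 1 and 4) for mAb and 16 (10 and 2 on initiation and elongation genes) for rAb. Joining intervals within 10 bases left 2 rAb sites, 1 of them on synthetases. In the small intestine it left 20 of the 23 sites, 15 of them on initiation factor genes. Without Lars2 there were 0 mAb sites and 1 rAb site, and 0 synthetase sites in each of the 3 lists. Leaving out peaks in another gene took the rAb initiation sites to 0. The −log10 p cutoff of 5 and the assignment by overlap of most of the peak changed no count by over 1.5 times.

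The median mAb log2 fold of member peaks became 0.72 with at least 10 IP reads, 0.56 without small RNA genes and 1.27 with the best peak of each gene, and the median −log10 p 1, 0.161 and 0.509. In the rAb list these were 0.89, 1.24 and 2.61, and 1.55, 0.808 and 1.34. With the best peak of each gene the small intestine medians were 5.24 and 10. Requiring reciprocal overlap of at least 50% left 0 member sites shared between any pair of lists compared (mAb with rAb, rAb with mAb, small intestine with mAb and with rAb). Counting any called peak of the other list raised the overlaps to 4 for rAb with mAb, 8 for small intestine with mAb and 5 for small intestine with rAb. The count of 15 intronic sites near the start was 14 within 1000 bases and 13 from the first base of the gene. This pair of alternatives, and leaving out small RNA genes for the medians, were chosen after seeing the data. The causes were not tested beyond what each alternative removes.

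No paired analysis was possible because the small intestine table merges both numbered replicates, and leaving out each replicate was not run for the same reason. Low read numbers limit the colon values: the commonest peak, 3 IP over 1 input read, is no site in either list.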

Other observations

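Among the 18 genome loci that align to the Lars2 stretch, the Zfp185 locus held 2 sites in each colon list, with highest log2 folds of 3.28 (mAb) and 4.02 (rAb), and no small intestine peak. The Gphn locus, at 98.3% identity over 236 bases, held 2 small intestine sites, the higher at 6.26, while its highest colon values were 2.37 (mAb) and 2.89 (rAb). The Gm26561 locus, at 97.6% identity over 83 bases, had a small intestine site at a log2 fold of 3.70 whose −log10 p was at the cap of 400. The 10 other loci carried no called peak in any list. No explanation of these values was tested.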
